A study of Saccharomyces cerevisiae with 12 samples.

Results

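The transcriptome of yeast cells lacking EUC1 was compared with that of WT cells in glucose medium. The comparison takes 6 of the 12 samples of the series, 3 titled WT and 3 titled ymr111c/euc1∆, and it was chosen by these titles and not by any measured value. It covers the 6217 of 6825 listed identifiers whose expression averaged 1 TPM or more across the 6 samples. TPM, is a read count divided by transcript length and scaled to a common total per sample. Both genotypes are haploid DF5a cells, a laboratory strain of Saccharomyces cerevisiae of mating type a. The WT strain carries the integrated plasmid YIplac211-MED11::URA3. The euc1∆ strain carries the same plasmid and, in place of the EUC1 reading frame (YMR111C), the nourseothricin resistance marker natNT2. Both groups therefore share an additional copy of MED11, the neighbour of EUC1, and the URA3 marker, and each group is 1 strain. Cells were harvested in mid-log phase in YP medium with glucose, and polyA RNA was sequenced. The labels do not say whether the 3 samples of a strain came from separate cultures, so the p-values measure the spread between these samples, which may be technical. The other 6 samples come from a second experiment, in W303a cells with galactose, which is used only at the end.

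Euc1 is a DNA-binding protein with a GCR1 domain, a fold shared with a few other yeast transcription factors such as Gcr1 and Msn1. It recruits the SUMO-targeted ubiquitin ligase Slx5/Slx8 to a small number of chromosomal sites, the ub-hotspots, where ubiquitin conjugates gather on chromatin. SUMO-targeted ligases attach ubiquitin to proteins already modified with SUMO, and such proteins can then be extracted by the segregase Cdc48 and degraded. The comparison asks which transcripts change when Euc1 is missing.

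The TPM values summed to between 973736 and 993435 per sample, and the median tested gene had 28.1 to 31.5 TPM. How many reads stand behind a value cannot be read from TPM, and the depth is unknown. HIS3 and TRP1 were listed at 0 in all 6 samples. Of the a-cell markers, MFA2, which encodes a-factor, was listed at 544 to 799 TPM and the pheromone receptor STE2 at 168 to 248 TPM. Of the α-cell markers, MF(ALPHA)1 was at 0 to 0.49 TPM, the receptor STE3 at 1.76 to 3.03 TPM, SAG1 at 6.79 to 11.9 TPM and MF(ALPHA)2 at 7.86 to 13.9 TPM. The summed TPM of 16 meiosis and sporulation genes was 101 to 119 in WT and 113 in each euc1∆ sample. Fewer cells with a transcript and less of it per cell cannot be told apart in such bulk RNA.

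Differences between the genotypes were small for most genes. The test was limma, applied to log2(TPM + 1), and all fold changes below are on this scale, where they are understated for genes of low TPM. The median absolute log2 fold change over the tested genes was 0.10, and the median log2 fold change was 0.01. At an unadjusted p under 0.01, 30 genes (0.483% of those tested) were higher and 90 (1.45%) were lower in euc1∆ cells, together 120 (1.93%). At an unadjusted p under 0.05 there were 469 (7.54%). After Benjamini-Hochberg adjustment over all tested genes, 2 genes (0.0322%) had an adjusted p under 0.1, namely EUC1 and PAU9. In what follows, a gene is said to pass the test at an unadjusted p under 0.01, and its adjusted p was 0.1 or more unless EUC1 or PAU9 is meant. The 30 higher genes had a median log2 fold change of 0.37 and the 90 lower genes one of -0.51. In 119 of the 120 the 3 samples of one genotype all lay on one side of the other 3. Among all tested genes, the euc1∆ samples all lay above the WT samples in 355 (5.71%) and all below in 458 (7.37%). Of the 120 genes, 40 kept an unadjusted p under 0.01 when each of the 6 samples was left out in turn, 6 of them higher and 34 lower.

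**Figure D1:**
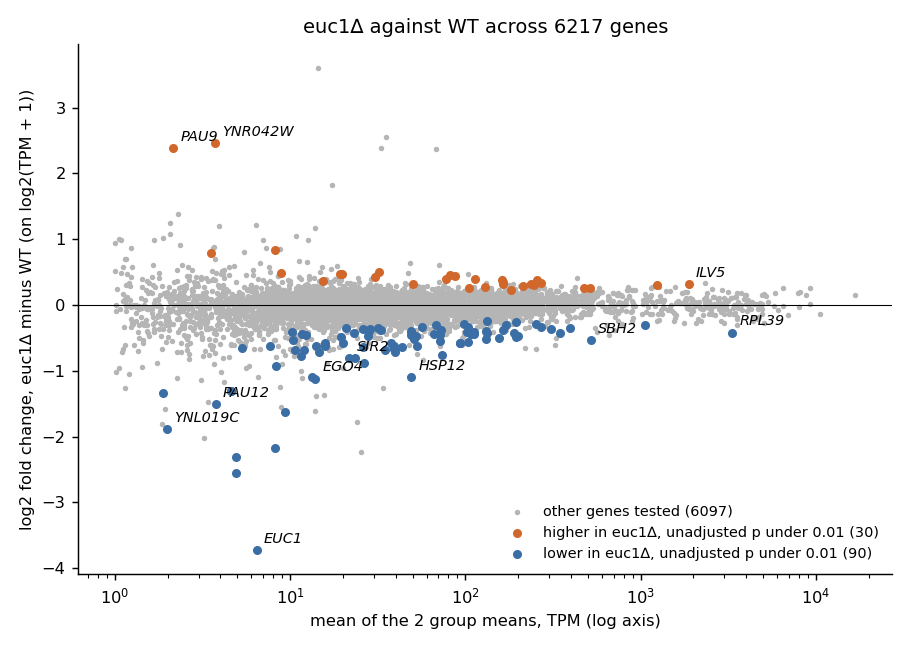
Log2 fold change of euc1∆ minus WT (vertical axis, on log2(TPM + 1)) against the mean of the group means in TPM (horizontal log axis), with 1 point per tested gene. The 30 genes higher in euc1∆ at an unadjusted p under 0.01 are orange, the 90 lower genes are blue, and above about 100 TPM nearly every coloured gene lies within a log2 change of 1.

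The deleted gene and its neighbours on chromosome XIII were read first. EUC1 was listed at 9.56, 16 and 13 TPM in WT and at 0, 0 and 0.09 TPM in euc1∆ cells, which matches the labels. It fell by 3.72 on the log2 scale (SE 0.24, limma adjusted p = 0.00163). MED11, a subunit of the Mediator head that is present in an additional plasmid copy in both strains, lies next to EUC1 at 494100 to 494495 in the R64 genome. It was listed at 65.2, 62.0 and 65.6 TPM in WT and at 48.4, 40.4 and 35.9 TPM in euc1∆ cells, so that its level in the mutant averaged 64.7% of WT. Its log2 fold change was -0.63 (SE 0.11, limma adjusted p = 0.175), and its unadjusted p stayed below 0.01 with every sample left out in turn. Reads from the native and the plasmid copy cannot be told apart. On the other side of EUC1, HFD1, a fatty aldehyde dehydrogenase, averaged 25.2 TPM in WT against 28.7 TPM in the mutant, with a log2 fold change of 0.18 (SE 0.10) that did not pass the test. FOL3, the folate synthesis gene beyond MED11, overlapped between the genotypes with a log2 fold change of 0.13 (SE 0.10). URA3, the plasmid marker, was listed at 198 to 224 TPM in WT against 204 to 223 TPM in the mutant. Of 25 Mediator genes, MED11 alone passed the test, and the median log2 fold change of the list was 0.00. The other GCR1-domain genes did not pass the test, with log2 fold changes between -0.13 and 0.11.

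Euc1 binds DNA at the ub-hotspots, and 4 of the hotspot motifs are printed here: those beside SSF2 and RCO1, and those with further genes that passed the test within 20 kb. They were read from the R64 genome at the positions the study annotates, 5′ to 3′, on the strand given, with the letters TGTTNC in capitals.
ub-HS3 beside SSF2, chrIV:1087212-1087247, minus strand: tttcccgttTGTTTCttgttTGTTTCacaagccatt
ub-HS5 beside RCO1, chrXIII:413597-413632, plus strand: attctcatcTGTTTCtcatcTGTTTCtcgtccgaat
ub-HS2 between PSA1 and MCH1, chrIV:358322-358357, minus strand: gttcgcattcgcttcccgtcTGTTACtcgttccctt
ub-HS7, the first of its motifs, between ATG34 and ATG19, chrXV:167991-168026, plus strand: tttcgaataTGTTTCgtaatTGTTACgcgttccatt
The letters TGTTNC were chosen by looking at these sequences. On either strand they occur at least once in 7.95% of all windows of 36 bases of the nuclear genome, and at least 2 times on 1 strand in 0.169%. SSF2, which acts in the maturation of the large ribosomal subunit, starts 334 bp from ub-HS3. It was listed at 40.1, 45.6 and 43.4 TPM in WT and at 23.6, 28.5 and 27.1 TPM in euc1∆ cells. It was lower without overlap between the genotypes, and it passed the test in each leave-one-out fit. RCO1, a subunit of the histone deacetylase complex Rpd3S, starts 350 bp from ub-HS5. It was listed at 14.1, 18.3 and 16.9 TPM in WT and at 26.7, 20.2 and 22.7 TPM in euc1∆ cells. RCO1 was higher without overlap, but its unadjusted p of 0.00922 (limma) became 0.0386 without euc1∆ replicate 1. RCO1 overlaps YMR075C-A on the other strand, and whether reads were assigned by strand is not given in the sources used here. None of the other 12 genes that flank a ub-hotspot passed the test. In a wider window of 20 kb around the motifs, 133 genes were tested, of which 2 were higher, against 0.483% of all tested genes, and 4 were lower, against 1.45%, at an unadjusted p under 0.01. Beside SSF2 and RCO1 these were MHF1, 8546 bp from ub-HS7, and SIR2, PRP11 and MRP10, 13891 to 18400 bp from ub-HS2. In 20 of the 133 genes the euc1∆ samples all lay below the WT samples, against 7.37% of all tested genes. In 7 they all lay above, against 5.71%. The median log2 fold change of the 133 genes was 0.01, the same as over all tested genes.

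**Figure D2:**
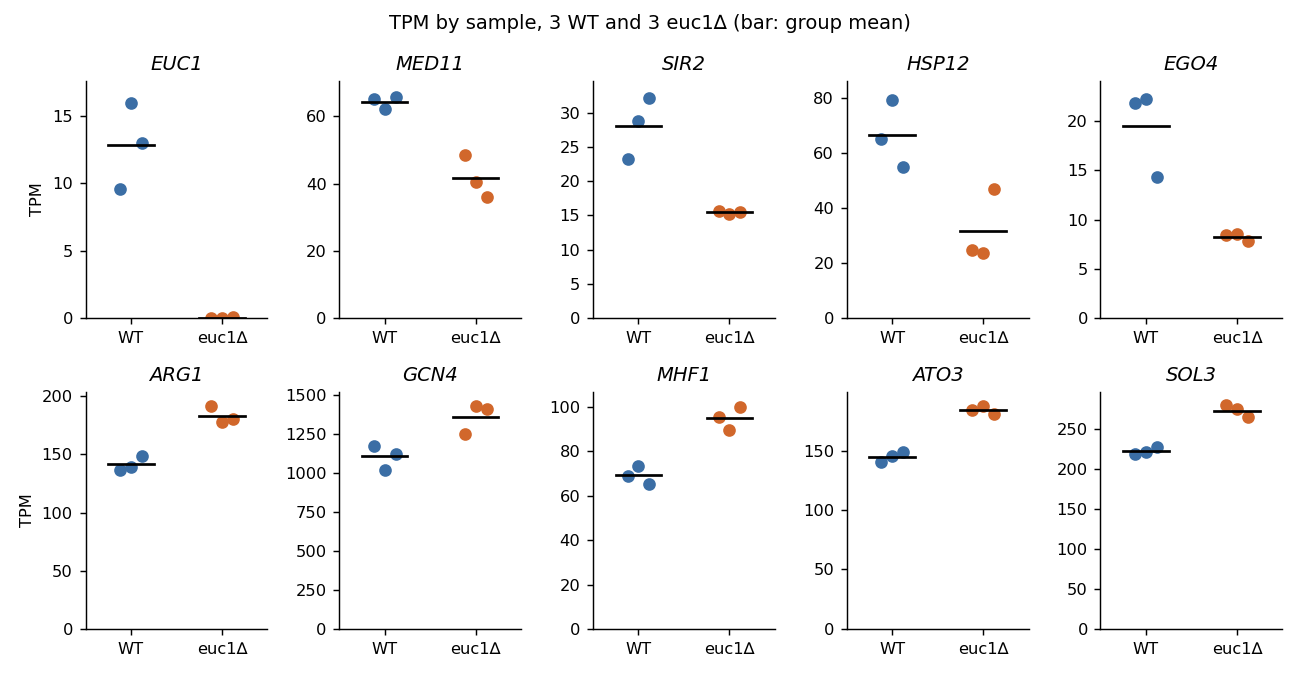
TPM (vertical axis, from 0) of 10 genes in the 3 WT samples (blue) and the 3 euc1∆ samples (orange), with a bar at each group mean. EUC1, MED11, SIR2, HSP12 and EGO4 in the upper row were lower and ARG1, GCN4, MHF1, ATO3 and SOL3 in the lower row were higher in euc1∆ cells, and in none of the 10 do the genotypes overlap.

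Genes of amino acid synthesis had mostly positive log2 fold changes, but few passed the test. Over 8 lists of amino acid and ammonium metabolism, 95 of 116 tested genes had a log2 fold change above 0, against 51.7% of all tested genes, with a median of 0.12. Of the 116, 8 passed the test as higher, against 0.483% of all tested genes, and none as lower. None had an adjusted p under 0.1 (limma). The euc1∆ samples all lay above the WT samples in 37 of the 116, against 5.71% of all tested genes, and all below in 2, against 7.37%. The summed TPM of the lists was 17322, 18644 and 20065 in WT and 21762, 20835 and 20324 in euc1∆ cells. The lowest euc1∆ sample thus lay just above the highest WT sample, and WT replicate 1 was the lowest of all. The median of the lists was 0.07 without WT replicate 1 and 0.17 without WT replicate 3. After the correction for gene length and GC content described later, 92 of the 116 were above 0, against 52.8% of all genes, and the median was 0.10. These lists were joined after their values had been seen, and the joint count is given as a description.

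ARG1, argininosuccinate synthetase of the arginine pathway, was listed at 137, 139 and 149 TPM in WT and at 191, 178 and 181 TPM in euc1∆ cells. It was higher by a log2 fold change of 0.37 (SE 0.07, limma adjusted p = 0.204 and 0.000688 unadjusted) and was the only one of the 8 to pass the test in every leave-one-out fit. CAR1, the arginase that starts arginine breakdown, stood at 99.7, 105 and 87.5 TPM in WT and at 123, 141 and 123 TPM in the mutant. Its genotypes did not overlap and its log2 fold change was 0.40 (SE 0.09). Of the 12 genes of the arginine list, 3 passed the test as higher, ARG1 and CAR1 among them, against 0.483% of all tested genes. In 9 of the 12 the log2 fold change was above 0, against 51.7% of all tested genes. Enzymes of synthesis and of breakdown were thus both among the higher genes.

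Of the branched-chain amino acid genes, all 12 had a log2 fold change above 0. BAT2, the cytosolic branched-chain aminotransferase, was listed at 202, 225 and 206 TPM in WT and at 245, 275 and 270 TPM in euc1∆ cells, with a log2 fold change of 0.32 (SE 0.08). ILV5, acetohydroxyacid reductoisomerase and the most abundant transcript of the list, was listed at 1481, 1664 and 1892 TPM in WT and at 2111, 2149 and 1976 TPM in the mutant. The WT samples of ILV5 spread widely but stayed below the mutant. LEU2, an enzyme of leucine synthesis, was listed at 80.0 to 89.1 TPM in WT against 94.3 to 98.4 TPM in the mutant, which did not pass the test.

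In the list of serine, glycine and threonine synthesis, 14 of 15 genes had a log2 fold change above 0. GCV2, the P subunit of the glycine cleavage complex, stood at 58.0, 72.5 and 71.3 TPM in WT and at 96.3, 83.2 and 86.0 TPM in the mutant, a log2 fold change of 0.39 (SE 0.11). In sulfur metabolism, MET6, methionine synthase, was listed at 220, 243 and 254 TPM in WT and at 306, 318 and 278 TPM in euc1∆ cells. MET6 was higher by a log2 fold change of 0.33 (SE 0.08), and CYS4, cystathionine beta-synthase, by 0.26 (SE 0.07). Among 31 genes of sulfate assimilation and methionine, 20 had a positive sign and the median was 0.06, so the list as a whole moved less than the branched-chain list.

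No gene of the other amino acid lists passed the test. Of 16 genes of glutamate, glutamine and ammonium metabolism, 13 had a positive sign, and in 8 of the 16 the euc1∆ samples all lay above the WT samples, against 5.71% of all tested genes. Examples are GDH1, the NADPH-dependent glutamate dehydrogenase, with a log2 fold change of 0.22 (SE 0.07), and the ammonium permease MEP3 with 0.25 (SE 0.08). All 6 tested histidine genes had a positive sign, with HIS5 at 0.18 (SE 0.07) and HIS4 at 0.18 (SE 0.09). ARO9, an aromatic aminotransferase, had a log2 fold change of 0.34 (SE 0.11) and ARO4, which starts aromatic synthesis, one of 0.17 (SE 0.07). LYS21, homocitrate synthase, had one of 0.28 (SE 0.11), but 29.5% of its stretches of 75 bp (1 read length) also occur elsewhere in the genome. Of 20 purine synthesis genes, 16 had a positive sign and none passed the test, with ADE6 at 0.25 (SE 0.08) and IMD3 at 0.21 (SE 0.09).

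Outside these lists, GCN4, the transcriptional activator of amino acid synthesis genes, was itself higher. It was listed at 1174, 1021 and 1123 TPM in WT and at 1248, 1428 and 1409 TPM in euc1∆ cells, with a log2 fold change of 0.30 (SE 0.08, limma unadjusted p = 0.00614). The genotypes did not overlap, and the unadjusted p was 0.0287 without euc1∆ replicate 3. Gcn4 is regulated mainly through translation, which transcript levels do not show. Gcn4 binds the letters TGACTC, which were searched on both strands in the 250 bases before the start codon. They occurred in 365 of 5661 nuclear protein-coding genes (6.45%), in 6 of the 26 such genes that were higher at an unadjusted p under 0.01 and in 2 of the 69 that were lower. The 6 include PAU9, all of whose stretches of 75 bp occur elsewhere in the genome, and the 2 include the deleted EUC1. In the amino acid lists the letters occurred in 49 of 116 genes (42.2%), and in 2 of the 8 that passed the test. The median log2 fold change within these lists was 0.14 for genes with the letters and 0.11 for genes without them. Windows around the match are shown for 4 of the 6 higher genes, 5′ to 3′ on the strand of the gene in R64, with the match in capitals.
ILV5, chrXII:839376-839405, minus strand: gatgacctaactTGACTCaatggcttttac
GCV2, chrXIII:637250-637278, plus strand: gactctcagagGAGTCAtcgaagtcagca
ALD5, chrV:303791-303820, plus strand: ttggaagacttcTGACTCatcactacgcag
ATO3, chrIV:1242187-1242216, minus strand: tcacgatgaccgTGACTCagaaggaatatt
In GCV2 the match reads on the opposite strand. No match was found before ARG1, CAR1, BAT2, MET6 or CYS4, which says only that these letters are not in this window. ATO3, a putative ammonium transporter of the plasma membrane, was listed at 141, 145 and 149 TPM in WT and at 184, 188 and 181 TPM in euc1∆ cells. The genotypes lay far apart relative to their ranges, and the log2 fold change of 0.34 (SE 0.06) passed the test in every leave-one-out fit. ALD5, a mitochondrial aldehyde dehydrogenase, had one of 0.38 (SE 0.10) and was the only member of the fermentation and acetate list to pass the test.

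Apart from ARG1, the amino acid genes that passed the test were sensitive to single samples. Without euc1∆ replicate 2, the unadjusted p (limma) was 0.0305 for ILV5, 0.0203 for CYS4, 0.0161 for MET6 and 0.0116 for CAR1. It was 0.0249 for GCV2 without euc1∆ replicate 1 and 0.0159 for BAT2 without euc1∆ replicate 3. The direction was kept in each of these fits.

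**Figure D3:**
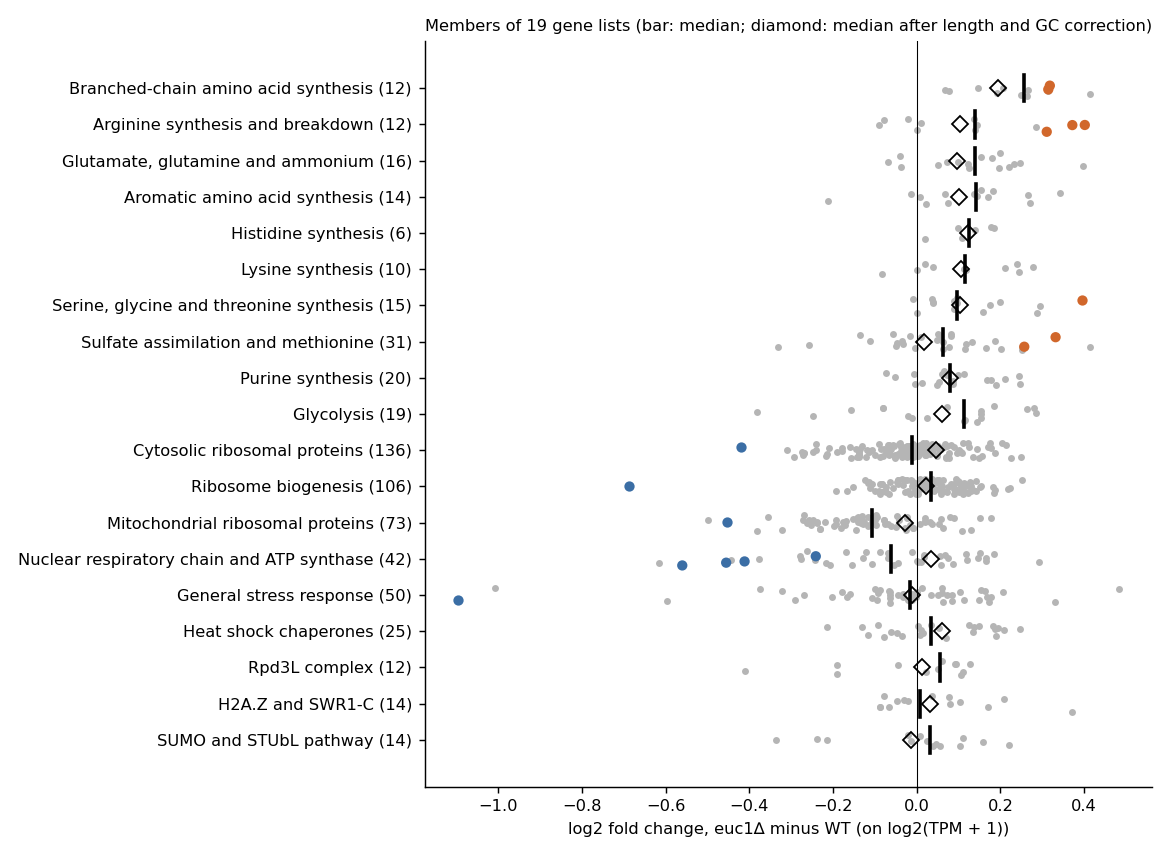
Log2 fold change of euc1∆ minus WT (horizontal axis, on log2(TPM + 1)) of the tested members of 19 gene lists, whose sizes stand in parentheses. Members at an unadjusted p under 0.01 are orange where higher and blue where lower, bars mark the median, and diamonds mark it after a correction for gene length and GC content. The amino acid lists lie to the right of 0 with medians of 0.06 to 0.26, and the lists of mitochondrial ribosomal proteins and the respiratory chain lie to the left with medians of -0.11 and -0.06.

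Central carbon metabolism showed few differences that passed the test. HXT1, the low-affinity hexose transporter of cells in high glucose, was listed at 142, 141 and 154 TPM in WT and at 188, 190 and 167 TPM in euc1∆ cells, with a log2 fold change of 0.31 (SE 0.08). It was the only one of 16 tested hexose transporters to pass the test, and its unadjusted p was 0.02 (limma) without WT replicate 2. In glycolysis no gene of 19 passed, but in 7 the euc1∆ samples all lay above the WT samples and in 3 all below, against 5.71% and 7.37% of all tested genes. The 7 included PFK1, a subunit of phosphofructokinase, with a log2 fold change of 0.29 (SE 0.10). The 3 included TDH1, a minor glyceraldehyde-3-phosphate dehydrogenase, with -0.38 (SE 0.13). SOL3 and GND1 encode successive enzymes of the oxidative pentose phosphate pathway. SOL3, a 6-phosphogluconolactonase, was listed at 218, 220 and 227 TPM in WT and at 279, 274 and 265 TPM in the mutant. Its log2 fold change was 0.30 (SE 0.06), it was separated by more than the range within either genotype, and it passed the test in every leave-one-out fit. GND1, 6-phosphogluconate dehydrogenase, had one of 0.25 (SE 0.07), with an unadjusted p of 0.027 (limma) without WT replicate 2.

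Further genes that were higher had roles outside these lists. MHF1, a histone-fold subunit of a DNA repair complex, was listed at 69.0, 73.4 and 65.2 TPM in WT and at 95.4, 89.7 and 100.1 TPM in euc1∆ cells. It was higher by a log2 fold change of 0.45 (SE 0.08, limma adjusted p = 0.175) and passed the test with each sample left out. PRM3, a nuclear envelope protein needed for nuclear fusion in mating, stood at 17.8, 14.9 and 15.5 TPM in WT and at 21.9, 22.5 and 23.4 TPM in the mutant, a log2 fold change of 0.47 (SE 0.11). After a correction for length and GC content, in which the trend on both was removed from each sample, both of these short genes had an adjusted p (limma) under 0.1, 0.0328 for MHF1 and 0.0506 for PRM3. ATG41, an autophagy factor, had a log2 fold change of 0.43 (SE 0.10), and GPI19, which acts in the first step of GPI anchor synthesis, one of 0.48 (SE 0.12). KTI11, a diphthamide synthesis protein, had one of 0.44 (SE 0.12), but it overlaps YBL071C on the other strand. FRE1, a surface ferric reductase, was higher by 0.29 (SE 0.07) and was the only one of 29 iron regulon genes to pass the test. YIL029W-A and YNL109W, which have no locus tag in the R64 annotation used, were higher by 0.84 (SE 0.21) and 0.50 (SE 0.14). Without euc1∆ replicate 3 the unadjusted p (limma) was 0.0119 for PRM3 and 0.0124 for ATG41. It was 0.022 for KTI11 without WT replicate 1 and 0.0319 for YNL109W without WT replicate 2. Without euc1∆ replicate 2 it was 0.02 for GPI19, 0.0231 for ALD5, 0.0139 for FRE1 and 0.0167 for YIL029W-A.

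SIR2 was among the clearest lower genes. It encodes the NAD-dependent histone deacetylase that silences the mating type loci, the telomeres and the ribosomal DNA. It lies on chromosome IV from 376757 to 378445 and was listed at 23.2, 28.8 and 32.1 TPM in WT and at 15.6, 15.2 and 15.6 TPM in euc1∆ cells. The mutant samples were almost equal and averaged 55.1% of WT. The log2 fold change was -0.81 (SE 0.13, limma adjusted p = 0.16 and 0.000224 unadjusted), and the unadjusted p stayed below 0.01 in every alternative. After the correction for length and GC content the adjusted p was 0.0114 (limma), and after rescaling by the median of ratios it was 0.0843 (limma). None of the other 7 silencing genes passed the test, and the list's median was 0.03. Another deacetylase gene, HOS1, was listed at 11.9, 12.3 and 11.3 TPM in WT and at 7.79, 9.06 and 9.03 TPM in the mutant, a log2 fold change of -0.42 (SE 0.12). The genotypes did not overlap, but no fit with a sample left out kept its unadjusted p under 0.01, which rose to 0.0402 (limma) without euc1∆ replicate 1.

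Loci that Sir2 is known to silence were then read. Of 241 listed genes within 20 kb of a chromosome end, 177 averaged 1 TPM or more and were tested, so those of lowest TPM are not covered. Of the 177, 3 were higher, against 0.483% of all tested genes, and 2 were lower, against 1.45%, at an unadjusted p under 0.01. PAU9 among the 3 and PAU12 among the 2 share 100% and 63.7% of their windows of 75 bp with other places in the genome. The median log2 fold change of the 177 was -0.04. The silent α gene HMLALPHA1 stood at 0 to 0.48 TPM in WT against 0.27 to 0.5 TPM in the mutant, below the filter. HMLALPHA2, all of whose windows of 75 bp occur elsewhere in the genome, was listed at 36.6, 41.3 and 42.6 TPM in WT and at 40.3, 28.5 and 30.4 TPM in euc1∆ cells. It overlapped between the genotypes and did not pass, with a log2 fold change of -0.29 (SE 0.14). HMRA1 was listed at 133, 118 and 121 TPM in WT and at 106, 79.2 and 88.8 TPM in euc1∆ cells, with a log2 fold change of -0.44 (SE 0.11). In a strain of mating type a, the same a1 sequence is also expressed from the active MAT locus, so HMRA1 does not report silencing here. Its unadjusted p was 0.019 (limma) without WT replicate 1. Of the 6 a-cell marker genes 5 had a negative sign, with MFA2 at -0.30 (SE 0.09) and MFA1 at -0.35 (SE 0.16), and none passed the test. The median of this list was -0.18, and the summed TPM of the 6 genes was 1177, 1463 and 1263 in WT and 1089, 1003 and 1116 in euc1∆ cells. Of 10 haploid-specific genes none passed the test, with FAR1, an inhibitor of the cyclin-dependent kinase in mating, at -0.25 (SE 0.10). AFB1, an a-factor barrier protein, was listed at 11.4, 14.7 and 13.9 TPM in WT and at 8.09, 8.64 and 7.08 TPM in the mutant. It was outside these lists and passed the test in every leave-one-out fit, with a log2 fold change of -0.68 (SE 0.14).

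HSP12, a small membrane-stabilising protein strongly induced by stress, was listed at 65.0, 79.2 and 55.0 TPM in WT and at 24.6, 23.6 and 46.8 TPM in euc1∆ cells. Euc1∆ replicate 3 stood apart from the other 2 but below all WT samples. The log2 fold change was -1.10 (SE 0.25, limma adjusted p = 0.294 and 0.0024 unadjusted), and the unadjusted p was 0.0131 without WT replicate 1. The Msn2 and Msn4 stress response element AGGGG, searched on both strands, was present in the 250 bases before the start codon in 19.1% of nuclear protein-coding genes. It was found at 2 places before HSP12, shown 5′ to 3′ on the strand of the gene with the match, on the opposite strand, in capitals.
HSP12, chrVI:107012-107040, plus strand: ctagatctacagCCCCTggaaaatcgttt
HSP12, chrVI:107054-107082, plus strand: gttccggtcgtcCCCCTcttgatctgaaa
Of 50 genes of the general stress response, 32 had the element, and HSP12 was the only one of the 50 to pass the test. The median of the list was -0.02, with 20 genes above 0. Of 25 heat shock chaperone genes none passed, with SSA1 at 0.19 (SE 0.08) and HSP60 at 0.21 (SE 0.10), and 51.9% of the windows of SSA1 also occur elsewhere in the genome.

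Other genes that were lower are given by the size of the difference. EGO4, a small protein of a predicted TORC1-regulating complex, was listed at 21.8, 22.2 and 14.3 TPM in WT and at 8.47, 8.53 and 7.79 TPM in euc1∆ cells. It was lower by a log2 fold change of -1.12 (SE 0.17, limma adjusted p = 0.16) and passed the test with every sample left out. YGL204C, an uncharacterised gene, was listed at 34.2, 38.0 and 31.2 TPM in WT and at 19.7, 16.4 and 18.5 TPM in the mutant, a log2 fold change of -0.89 (SE 0.11, limma adjusted p = 0.1). Neither gene overlapped between the genotypes. ATG10, the E2-like enzyme of the Atg12 conjugation pathway, had one of -0.78 (SE 0.17). None of the 15 genes of the Cvt and autophagy list passed, with ATG16 at 0.87 (SE 0.34) and APE4 at 0.17 (SE 0.13). IST3, a splicing factor of the RES complex, was listed at 34.0, 31.2 and 30.8 TPM in WT and at 19.9, 22.4 and 18.6 TPM in euc1∆ cells, with a log2 fold change of -0.63 (SE 0.10). EMI1, needed for induction of the meiotic regulator IME1, had one of -0.63 (SE 0.16), and overlaps GRX2 on the other strand. Its unadjusted p was 0.0149 (limma) without euc1∆ replicate 2. YHR050W-A and YOL155W-A, small genes without a known role, were lower by -0.92 (SE 0.20) and -1.09 (SE 0.26). All windows of YOL155W-A occur elsewhere in the genome, so its value is uncertain, and its unadjusted p was 0.0178 (limma) without WT replicate 1. YJR023C, without a locus tag in R64, was lower by -1.63 (SE 0.29).

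Most lower genes were short, and gene length moved with the fold change across the whole table. Of the 69 lower genes with a known length, 51 were 500 bp or less (73.9%), against 7 of 26 higher genes and 12.97% of all tested genes with a known length. The median log2 fold change rose from -0.22 in 227 genes of up to 300 bp to 0.09 in 780 genes over 2500 bp. The share of genes that were lower at an unadjusted p under 0.01 was 10.1% in the shortest and 0 in the longest class. By sample, the median deviation of genes up to 300 bp from the mean of the 6 samples was 0.17, 0.15 and 0.05 in WT and -0.07, -0.14 and -0.04 in euc1∆ cells. The genotypes did not overlap in this class, while in genes over 2500 bp they did, with -0.25, 0.03 and 0.09 in WT and 0.10, 0.06 and -0.02 in the mutant. In WT replicate 1 the deviation was therefore highest in the shortest and lowest in the longest genes. The part of library preparation in this trend was not tested. A fit in which the trend on length and GC content was removed from each sample covered 5675 genes and left 67 higher (1.18%) and 68 lower (1.20%) at an unadjusted p under 0.01. Of the 69 lower genes that had a length and so entered it, 40 remained lower past that threshold, and of the 26 such higher genes 21 remained higher. At an adjusted p under 0.1 it held 8 genes (0.141%), namely EUC1, SIR2, SSF2, YGL204C and PAU12 among the lower and PAU9, MHF1 and PRM3 among the higher ones.

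**Figure D4:**
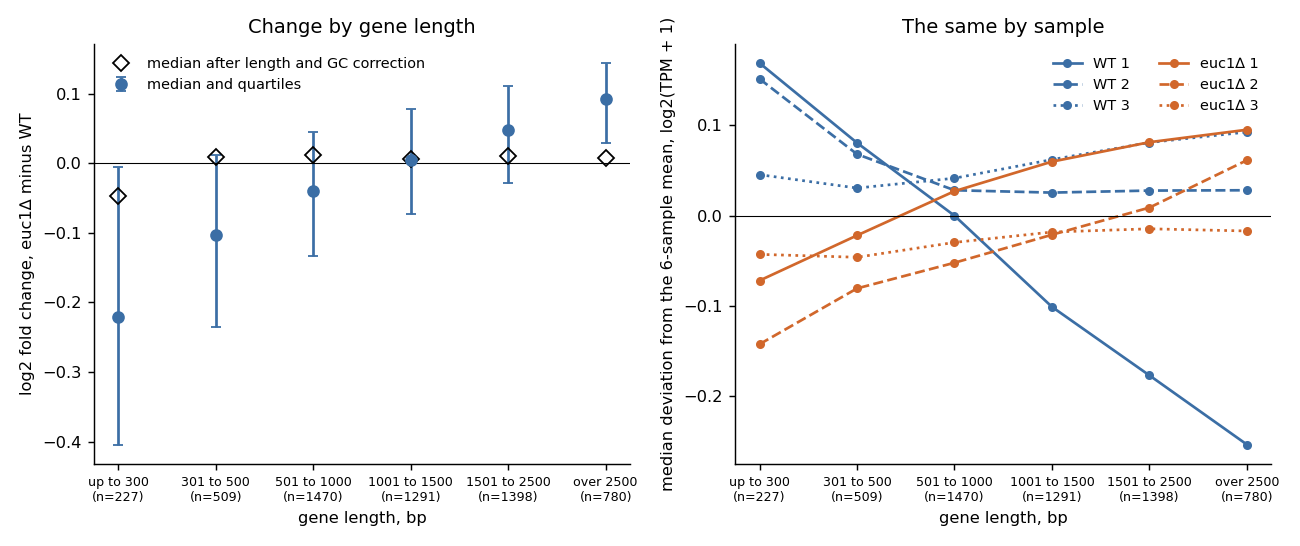
Left, median log2 fold change of euc1∆ minus WT with its quartiles (vertical axis) in 6 classes of gene length in bp (horizontal axis), with diamonds for the median after correction. Right, the median deviation of each sample from the mean of the 6 samples in the same classes, WT in blue and euc1∆ in orange. The median change goes from -0.22 in the shortest to 0.09 in the longest class, and the line of WT replicate 1 is the steepest.

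Several small subunits of mitochondrial complexes were among the lower genes. Of 42 nuclear genes of the respiratory chain and ATP synthase, 4 passed the test as lower, against 1.45% of all tested genes, and none as higher. COX7, a subunit of cytochrome c oxidase, was listed at 133, 125 and 112 TPM in WT and at 88.0, 82.8 and 79.0 TPM in euc1∆ cells, with a log2 fold change of -0.56 (SE 0.09, limma adjusted p = 0.16). QCR10, of the cytochrome bc1 complex, was listed at 59.2, 59.0 and 52.4 TPM in WT and at 38.6, 39.5 and 45.7 TPM in the mutant, a log2 fold change of -0.46 (SE 0.10). Neither gene overlapped between the genotypes. ATP14, of the ATP synthase, had a log2 fold change of -0.41 (SE 0.12), and COX13, of cytochrome c oxidase, one of -0.24 (SE 0.07). Without WT replicate 2 the unadjusted p (limma) was 0.0278 for ATP14 and 0.0426 for COX13. The list had a median gene length of 454.5 bp, and of the 736 tested genes of 500 bp or less 51 passed the test as lower. Its median log2 fold change was -0.06, and 0.04 after the correction for length and GC content, where COX7 and QCR10 still passed with -0.36 and -0.28. Some genes of assembly and maturation outside the list, picked after their values were seen, were lower too, and no list of such genes was counted. COA4 and RCF3, which act on cytochrome c oxidase, had -0.42 (SE 0.10) and -0.47 (SE 0.09). SDH6, an assembly factor of succinate dehydrogenase, had -0.62 (SE 0.16), and ISD11, which stabilises the cysteine desulfurase of iron-sulfur cluster synthesis, -0.52 (SE 0.14). Of these, RCF3 passed the test in every leave-one-out fit. After the length and GC correction COA4 and RCF3 still passed, while the unadjusted p (limma) was 0.0257 for SDH6 and 0.0188 for ISD11. Without WT replicate 1 the unadjusted p (limma) was 0.0198 for SDH6 and 0.0264 for ISD11, and without WT replicate 2 it was 0.0143 for COA4.

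Of 73 mitochondrial ribosomal protein genes, 58 had a negative sign, and in 12 the euc1∆ samples all lay below the WT samples, against 7.37% of all tested genes. MRP10, a small subunit protein, was the only one to pass the test. It was listed at 76.3, 84.9 and 85.8 TPM in WT and at 63.8, 52.2 and 64 TPM in euc1∆ cells, with a log2 fold change of -0.45 (SE 0.10), with an unadjusted p of 0.0103 (limma) without WT replicate 2. The median of the list was -0.11, and -0.03 after the correction. The summed TPM was 4188, 4265 and 4314 in WT and 4055, 3770 and 3944 in the mutant, without overlap.

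The translation machinery in the cytosol differed little. Of 136 tested cytosolic ribosomal protein genes, 63 had a positive sign, and RPL39, one of the shortest proteins of the large subunit, was the only one to pass the test. It was listed at 3879, 4330 and 3229 TPM in WT and at 3135, 2630 and 2744 TPM in euc1∆ cells, with a log2 fold change of -0.42 (SE 0.12), with an unadjusted p of 0.0285 (limma) without WT replicate 1. After the correction its unadjusted p was 0.0235 (limma), above the threshold. The correction used the span from gene start to gene end, introns included, which is 542 bp for RPL39. In that fit 91 of the 136 genes were above 0, against 52.8% of all genes, and the list's median was 0.05, against -0.01 before. Of 106 ribosome biogenesis genes, 64 had a positive sign and SSF2 alone passed the test. None of 20 genes of RNA polymerases I and III passed, with RPC10 at -0.21 (SE 0.07) and RPC31 at -0.19 (SE 0.07).

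The transcribed spacers of the ribosomal RNA precursor were lower throughout. All 5 listed spacer identifiers passed the test as lower, against 1.45% of all tested genes. The identical values of ETS1-1 and ETS1-2, copies of the 5′ external spacer, were 118, 117 and 103 TPM in WT and 77.6, 80.0 and 67.3 TPM in euc1∆ cells, with a log2 fold change of -0.58 (SE 0.10, limma adjusted p = 0.16). The internal spacer ITS1-2 was listed at 95.5, 103 and 78.5 TPM in WT and at 65.4, 51.7 and 46.4 TPM in the mutant, a log2 fold change of -0.76 (SE 0.15). The copies ETS2-1 and ETS2-2 of the 3′ external spacer, at 12.3, 5.05 and 4.15 TPM in WT and 2.53, 1.43 and 2.17 TPM in the mutant, had one of -1.31 (SE 0.36). The identifiers come from repeats of a single transcript, so they are not independent, and the summed TPM of the 5 was 292 to 355 in WT and 185 to 226 in euc1∆ cells. The unadjusted p of ETS2-1 was 0.0213 (limma) without euc1∆ replicate 2. Such spacers lack a regular polyA tail, and the libraries were made from polyA RNA. Of 76 tested snoRNA and snRNA identifiers, which are not polyadenylated either, 3 passed as lower, against 1.45% of all tested genes, and none as higher. Their median was -0.17. SnoRNA snR51 was listed at 25.4, 30.0 and 34.4 TPM in WT and at 16.2, 15.2 and 18.5 TPM in euc1∆ cells, with a log2 fold change of -0.80 (SE 0.13). For snR48 the log2 fold change was -2.18 (SE 0.65) and for snR46 it was -0.64 (SE 0.19), and without WT replicate 1 their unadjusted p (limma) was 0.0538 and 0.037. The summed TPM of these identifiers overlapped between the genotypes, with 1912 to 2559 in WT and 1838 to 2512 in euc1∆ cells. The part of polyA selection in these values was not tested.

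Among the seripauperins, small cell wall proteins of a repeated subtelomeric family, 8 of 20 genes were tested. PAU12 was listed at 6.35, 7.08 and 4.68 TPM in WT and at 1.96, 1.46 and 1.02 TPM in euc1∆ cells, with a log2 fold change of -1.51 (SE 0.24). PAU9 was listed at 0 in WT and at 3.53 to 5.70 TPM in the mutant, and rose with an adjusted p of 0.0957 (limma). It met the filter only through the mutant samples, and its adjusted p was 0.1 or more with a pseudocount of 0.1 or 5, with the replicate block and with any one of the 6 samples left out. Of the windows of 75 bp, 63.7% of those in PAU12 and all of those in PAU9 have copies elsewhere, and their reads may belong to relatives. YNL019C, of another repeated family, was listed at 3.95, 3.72 and 3.21 TPM in WT and at 0.96, 0 and 0 TPM in euc1∆ cells, and 90.4% of its windows are shared. YNR042W, without a locus tag in R64, was listed at 0, 0 and 1.44 TPM in WT and at 3.19, 8.05 and 9.69 TPM in the mutant. These differences are between levels of a few TPM. No member of the anaerobic cell wall mannoproteins passed, with TIR1 at 0.24 (SE 0.13) and PAU23 at -0.30 (SE 0.14).

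The pathway in which Euc1 acts showed no difference that passed the test. SLX5 was listed at 18.6 to 22 TPM in WT against 21.0 to 23.4 TPM in the mutant, and SLX8 at 18.1 to 30.4 TPM and 16.7 to 24.4 TPM. Both overlapped, with log2 fold changes of 0.16 (SE 0.11) and -0.21 (SE 0.20). In the list of 14 SUMO pathway genes, the smallest unadjusted p belonged to UBC9, the SUMO-conjugating enzyme, at -0.24 (SE 0.12) and the SUMO ligase MMS21 at -0.34 (SE 0.20). Of 14 genes of Cdc48 and its cofactors none passed, with UBX6 at -0.34 (SE 0.12) and DOA1 at 0.15 (SE 0.09). UBX6 was lower without overlap, and after the length and GC correction its unadjusted p was 0.0044 (limma), under the threshold. Chromatin complexes that the study links to Euc1 genetically were read next. RCO1 of Rpd3S was higher, as given above. Of 12 genes of the related deacetylase complex Rpd3L none passed. SAP30 came closest, at 49.3, 58.5 and 56.2 TPM in WT and at 48.5, 35.8 and 39.1 TPM in euc1∆ cells. It did not overlap between the genotypes, its log2 fold change was -0.41 (SE 0.13), and after the length and GC correction its unadjusted p was 0.00556 (limma), under the threshold. The others included PHO23 at -0.19 (SE 0.11), DEP1 at 0.06 (SE 0.15), SDS3 at -0.05 (SE 0.15) and RXT2 at 0.02 (SE 0.09). Of 14 genes of the histone variant H2A.Z and its exchange complex SWR1-C none passed, with HTZ1 at -0.03 (SE 0.07), SWR1 at 0.04 (SE 0.12), YAF9 at -0.09 (SE 0.11), RVB1 at 0.10 (SE 0.07) and ARP6 at 0.17 (SE 0.10). The mRNA-binding protein gene NPL3 had a log2 fold change of 0.06 (SE 0.11) and the regulator STB5 one of -0.12 (SE 0.14).

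The remaining metabolic, protein turnover, cell wall and cell cycle lists held at most 1 gene each that passed. Of 34 proteasome genes SEM1, its smallest lid subunit, was lower, at 441, 388 and 366 TPM in WT and 309, 292 and 285 TPM in euc1∆ cells, with a log2 fold change of -0.43 (SE 0.08). Of 10 ER translocon genes SBH2, a beta subunit of 267 bp, was lower by -0.53 (SE 0.09). Both genes passed the test in every leave-one-out fit and are short, with log2 fold changes of -0.25 and -0.40 after the correction. None of 27 ergosterol genes passed, with ERG1 at 0.22 (SE 0.08) and ERG11 at 0.20 (SE 0.08), and none of 25 genes of phospholipid and fatty acid synthesis, with FAS1 at 0.22 (SE 0.07) and CHO2 at 0.26 (SE 0.10). In 25 genes of the citrate and glyoxylate cycles, none passed, with PYC2, a pyruvate carboxylase, at 0.28 (SE 0.11). The cell cycle lists had no gene that passed, with RNR1 at 0.17 (SE 0.08) and PCL2 at -0.24 (SE 0.12) for G1/S and DSE1 at 0.23 (SE 0.09) and SIC1 at 0.15 (SE 0.09) for G2/M and M/G1. Nor did any of 9 core histone genes, with HTB1 at -0.14 (SE 0.06), 25 cell wall genes, with GAS1 at 0.18 (SE 0.10) and GAS5 at 0.21 (SE 0.12), or 16 phosphate genes, with PHO3 at 0.32 (SE 0.10). PHO11 had -0.39 (SE 0.15), and 82.4% of its windows are shared with relatives. In meiosis and sporulation SPS4 had -0.31 (SE 0.16) and CLB3 0.15 (SE 0.10).

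In the second experiment, euc1∆ cells of the W303a RAD5 background carried EUC1 on an integrated plasmid, under its own promoter in the control or under the GAL promoter in pGAL-EUC1, and were grown in raffinose before 2% galactose was added for 3 h. It shares no sample with the deletion, but strain and carbon source differ with the experiment and cannot be told apart from it. At an unadjusted p under 0.01 (limma), 10.6% of its 6332 tested genes were higher and 3.51% were lower with pGAL-EUC1, and the median log2 fold change was 0.08. Of the 89 lower genes of the deletion other than EUC1, 35 lay above this median with overexpression, and of the 30 higher genes 19 did. The median log2 fold change with overexpression was 0.01 for the lower genes and 0.14 for the higher genes. Of the 89 lower genes, 2 were higher and 4 lower with overexpression at an unadjusted p under 0.01 (limma). Of the 30 higher genes, 4 were higher and 2 lower at that threshold. Of all 6184 genes tested in both experiments apart from EUC1, 667 were higher and 221 lower. HSP12 moved in opposite directions, with -1.10 (SE 0.25) in the deletion and 0.52 (SE 0.06) with overexpression, a difference with an adjusted p of 0.0282 (limma over all 12 samples). MET6, at 0.33 (SE 0.08) and -0.33 (SE 0.06), and GND1, at 0.25 (SE 0.07) and -0.21 (SE 0.04), differed likewise, with adjusted p of 0.0151 and 0.0231 (limma) for the difference. The same held for LSO2, a ribosome-associated factor of recovery from starvation, at -0.38 (SE 0.08) and 0.23 (SE 0.06), with an adjusted p of 0.0156 (limma) for the difference. ATO3, BAT2 and PRM3 were higher in both experiments, with 0.54 (SE 0.05), 0.20 (SE 0.04) and 0.32 (SE 0.07) on overexpression. MRP10, EFM6, SPO73 and SRL3 were lower in both, with -0.26 (SE 0.07), -0.33 (SE 0.09), -0.31 (SE 0.07) and -0.17 (SE 0.04) on overexpression. SIR2 had 0.19 (SE 0.07) and SSF2 0.07 (SE 0.05) with overexpression, neither past the threshold, and their difference from the deletion had an adjusted p of 0.00936 (limma) in both cases. Over all 6185 genes tested in both experiments, the difference had an adjusted p under 0.1 in 142 (2.30%), of which 27 were among the 119 genes. The difference contains the deletion values by which the 119 genes, and so the genes named here, were picked. The 27 and the adjusted p of the difference for single genes are therefore descriptions and not separate evidence.

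**Figure D5:**
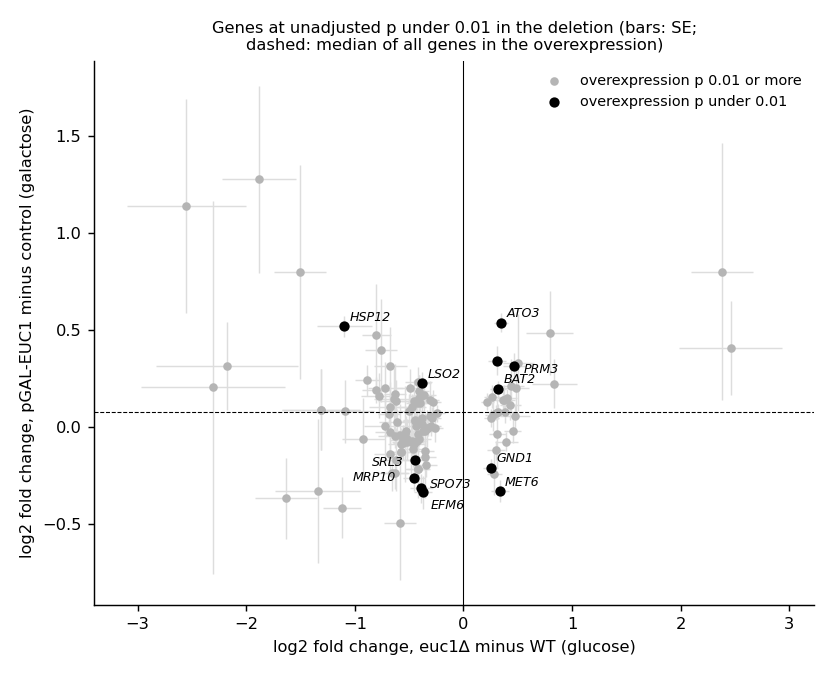
Log2 fold change with pGAL-EUC1 against control in galactose (vertical axis) against that of euc1∆ minus WT in glucose (horizontal axis) for the 119 genes other than EUC1 at an unadjusted p under 0.01 in the deletion, with SE bars. The 12 black points also had an unadjusted p under 0.01 with overexpression, and the dashed line marks the median of all genes there, 0.08. HSP12 and LSO2 stand in the upper left and MET6 and GND1 in the lower right, while ATO3, PRM3 and BAT2 stand in the upper right.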

How the data were processed

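RNA was prepared from 4 OD600 units of cells, and polyA RNA was sequenced as 75-bp single-end reads. The authors aligned the reads with STAR 2.6.0a to the R64-1-1 yeast transcriptome and estimated expression with RSEM 1.3.0. They deposited TPM values, 1 table for all 12 samples. Its header lacks the cell above the identifiers, and the 12 names were assigned to the 12 value columns. TPM are not counts, so no count model was used and no counting interval is given. Depth is unknown.

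Identifiers with a mean of 1 TPM or more in the 6 samples were tested on log2(TPM + 1) with limma 3.58.1 in R 4.3.3 (trend and Benjamini-Hochberg adjustment over all tested identifiers), on WT and euc1∆ alone. The procedure was tested on simulated data. Of 6825 identifiers, 5903 matched a locus tag of R64, which gave length, GC content and position. Length and GC content were those of the span from gene start to gene end, introns included. Alternatives changed the pseudocount, the filter, the scaling, the variance prior, the samples fitted, the replicate block and the length and GC correction, and each sample was left out in turn.

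Members, 46 gene lists and tests were chosen with earlier results of these data known. Genes were named as follows: EUC1, MED11 and URA3; the 12 largest changes in each direction at an unadjusted p under 0.01 without overlap and with a mean of 10 TPM in one group; in each list up to 4 genes that passed or else the 2 smallest p; the genes the study discusses; and those with an adjusted p under 0.1. Others, such as GCN4, ATO3, SOL3, GND1, HOS1, AFB1, IST3, EMI1, HMRA1, LEU2, COA4, RCF3, SDH6, ISD11, PRP11, LSO2, the spacers, snR46, EFM6, SPO73, SRL3, HFD1, FOL3, YNL019C, YNR042W, STE2, HIS3, TRP1, HMLALPHA1, HMLALPHA2, SAG1, MF(ALPHA)1 and STE3, were chosen after their values were seen or as markers. Results for some genes that the rule names are not reported here.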

Additional observations from a re-analysis of the deposited data

How the results depend on the processing

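At an adjusted p under 0.1 (limma) the comparison held 2 genes. It held 1 under either other pseudocount (0.1 and 5), 1 under the replicate block, 4 after rescaling by the median of ratios, 8 after the length and GC correction, 10 with nuclear protein-coding genes only, 101 with all 12 samples in 1 fit, and 1 to 3 with a replicate left out. With a mean of 10 TPM required it held 0, where 108 genes had an unadjusted p under 0.01 and 409 under 0.05. The replicate block left 11 higher genes at an unadjusted p under 0.01, against 30. The numbers are not taken to pair samples. Between same-numbered samples, the deviations of each gene from its genotype mean correlated at -0.106, 0.0779 and 0.0535. Median-of-ratios scaling gave 48 higher genes, the length and GC correction 67, and the block with that correction 46 higher and 49 lower. All 12 samples in 1 fit gave 325 genes, 107 higher and 218 lower. With a replicate left out, the total was 81 to 206, the higher genes 13 to 99 and the lower genes 64 to 158, with 99 higher genes without WT replicate 3 and 158 lower genes without euc1∆ replicate 1. The causes were not tested.

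The difference from overexpression, whose alternatives were chosen after seeing the data, had 142 genes, 215 after median-of-ratios scaling and 34 to 446 with a replicate left out, the most without WT replicate 1 and the fewest without pGAL-EUC1 replicate 2. Of 80 named genes that passed the test, 52 lost it under at least 1 alternative and none changed direction. Of those that did not pass, 8 changed sign. After the length and GC correction, with and without the block, SWR1 was at -0.067, YAF9 at 0.0047 and HTZ1 at 0.068. With a replicate left out, DEP1 ranged from -0.067 to 0.18, RXT2 from -0.018 to 0.055, SWR1 from -0.037 to 0.12, NPL3 from -0.040 to 0.11, MF(ALPHA)2 from -0.28 to 0.10, SDS3 from -0.19 to 0.060, YAF9 from -0.15 to 0.0023 and HTZ1 from -0.067 to 0.025. The unknown depth, 3 samples per strain and 1 strain per genotype limit every value.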

Other observations

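Gene groups chosen after their values were seen are given as descriptions. Of 10 DASH complex genes, which couple kinetochores to microtubules, 3 passed the test as lower, against 1.45% of all tested genes. These were DAD1, DAD2 and DAD4, with log2 fold changes of -0.38, -0.52 and -0.49, and DAD2 passed in every leave-one-out fit. DAD2 was listed at 63, 64 and 54.4 TPM in WT and at 38.5, 44.6 and 42.5 TPM in euc1∆ cells. The median of the list was -0.26, and -0.17 after the length and GC correction, and its genes are short, with a median of 450 bp. After that correction DAD2 alone of the 10 passed, and the unadjusted p (limma) was 0.027 for DAD1 and 0.0398 for DAD4. Without euc1∆ replicate 3 the unadjusted p (limma) was 0.0258 for DAD1, and without WT replicate 1 it was 0.0125 for DAD4.

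Of 6 prefoldin genes, whose products deliver unfolded actin and tubulin to a chaperonin, 2 passed as lower, against 1.45% of all tested genes. These were YKE2 and PFD1, with log2 fold changes of -0.40 and -0.33, and the list's median was -0.23. After the length and GC correction the median was -0.10 and neither gene passed, with YKE2 at -0.25 and PFD1 at -0.16. The unadjusted p of PFD1 was 0.0282 (limma) without WT replicate 2. Of 8 LSm genes, whose products bind RNA in splicing and decay, LSM2 was lower by -0.47. Of 17 genes of the chromatin remodeler RSC, 2 passed as lower, against 1.45% of all tested genes. These were HTL1 and LDB7, with unadjusted p (limma) of 0.0111 and 0.0226 without euc1∆ replicate 3. After the length and GC correction the unadjusted p (limma) was 0.0425 for HTL1 and 0.00199 for LDB7. The ubiquitin-like modifier gene URM1 stood at 227, 217 and 205 TPM in WT and 172, 151 and 158 TPM in euc1∆ cells. LSM2 and URM1 passed in every leave-one-out fit. After the length and GC correction, the log2 fold change was -0.37 for DAD2, -0.32 for LSM2 and -0.27 for URM1.

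SIR2 and its neighbour PRP11, a splicing factor gene, were both lower. PRP11 was listed at 33.1, 29.6 and 33.4 TPM in WT and at 27.4, 24.1 and 22.8 TPM in euc1∆ cells, and its unadjusted p was 0.0389 (limma) without euc1∆ replicate 3. On the other side of SIR2, NAT1, an acetyltransferase subunit gene, had a log2 fold change of 0.04.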
